A study of Homo sapiens with 3 samples.

Results

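The genes described here are those that encode the proteins of the cytosolic ribosome. They were taken from the table by name: protein-coding genes whose GENCODE release 44 symbol starts with RPL (large subunit) or RPS (small subunit), without read-through genes, S6 kinases and binding partners. The rule gave 88 genes of 20046 protein-coding genes and of 62754 genes in the table. Of these, 77 encode the standard proteins of the particle and are called core genes below, 46 in the large and 31 in the small subunit. A further 9 are autosomal or X-linked paralogs of a core gene, and 2 are Y-linked copies of RPS4X, which are counted but whose levels are not given.

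RNA was sequenced in 3 replicates of MCF10A, a human cell line from breast epithelium that grows without limit but does not form tumours. All 3 belonged to 1 group and 1 batch: cells that carried the Retro-X Tet-One vector without an inserted gene, had been selected with puromycin and received no doxycycline, sampled 27 h after seeding. Libraries were made from 300 ng of total RNA after removal of ribosomal RNA. The labels do not say whether the replicates were separate cultures, so the spread between them may be technical.

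Each eukaryotic ribosome is built from ribosomal RNA and about 1 copy of each ribosomal protein, and cells therefore make these proteins in matched amounts. Their mRNAs are short and abundant, and most begin with a run of pyrimidines, the 5′ terminal oligopyrimidine (TOP) motif, through which mTOR and the protein LARP1 control their translation. The genes have left many processed pseudogenes in the human genome, several of them carry small nucleolar RNAs in their introns, and a few have paralogs that are used mainly in testis or muscle.

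The values are TPM, a unit that divides each gene's reads by its length and scales every library to a total of 1000000. With the smallest step in the table taken as 1 read, annotated genes drew 15273329, 15446347 and 11166546 reads in replicates 1, 2 and 3. The label of the cells was checked on marker genes. All 8 genes listed for basal breast epithelium had a mean of at least 1 TPM, against 56.7% of all protein-coding genes, and summed to 12501 to 16076 TPM. CDH1 and EPCAM in that list are genes of epithelium in general and do not mark basal cells. KRT5, KRT14 and KRT17 led the list with means of 6612, 4144 and 2669 TPM, and EPCAM was the lowest with 14.6 TPM. In the luminal list 3 of 5 genes reached 1 TPM: KRT18, KRT8 and GATA3, with means of 413, 118 and 12.8 TPM. The other 2, ESR1 and PGR, which define hormone-responsive luminal cells, had 0 reads in 2 of the 3 replicates each. The luminal list was therefore not silent. Of 9 markers of blood, endothelium, fibroblasts, liver and muscle, 2 reached 1 TPM, 5 had 0 reads in every replicate, and the list summed to 6.63 to 7.41 TPM.

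The starts of the mRNAs are shown first, because the pyrimidine run there is the sequence feature that these genes share and that the selection by name did not use. A start was counted as a tract where the first transcribed base was C and the next 4 were C or T, read on the strand of the gene. The RefSeq promoter table for GRCh38.p14 held 62 of the 77 core genes, and 42 of them (67.7%) had such a start, against 4.65% of 15345 protein-coding genes. The share was 65.8% in the large and 70.8% in the small subunit. The median run of pyrimidines from the first base was 7 bases in the core genes and 0 in all protein-coding genes. With the start allowed to lie within 5 bases on either side the shares were 80.6% of core genes and 22.2% of protein-coding genes. A match describes these letters only and was not tested as a site of control. Each line below gives the 15 bases before the annotated start and the first 15 of the transcript, and the capitals mark the pyrimidine run that begins at the first transcribed base. The lines were chosen to show long and short runs among high genes, genes listed low and paralogs.
RPS6: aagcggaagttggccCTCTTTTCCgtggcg
RPS12: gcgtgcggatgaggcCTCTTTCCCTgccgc
RPL7A: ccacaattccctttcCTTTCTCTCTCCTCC
RPL41: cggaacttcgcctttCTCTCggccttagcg
RPL39: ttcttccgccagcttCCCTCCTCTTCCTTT
RPL24: ttcccatgattctctCTTTCTTTTCgccat
RPS10: ccgcgcatgctccttCCTTTCCagccccgg
RPL36A: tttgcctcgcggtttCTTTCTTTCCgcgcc
RPL36AL: ctgtttcttccctttCCTgttaggcgagag
RPL26: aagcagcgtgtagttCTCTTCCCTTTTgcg
RPL26L1: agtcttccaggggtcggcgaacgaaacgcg
RPS27: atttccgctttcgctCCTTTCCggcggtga
RPS27L: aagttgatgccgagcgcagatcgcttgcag
RPS4X: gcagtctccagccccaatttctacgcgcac

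These windows are RPS6 at chr9:19380222-19380251 on the minus strand, RPS12 at chr6:132814554-132814583 on the plus strand, RPL7A at chr9:133348203-133348232 on the plus strand, RPL41 at chr12:56116618-56116647 on the plus strand, RPL39 at chrX:119791616-119791645 on the minus strand, RPL24 at chr3:101686704-101686733 on the minus strand and RPS10 at chr6:34426055-34426084 on the minus strand. The others are RPL36A at chrX:101390996-101391025 on the plus strand, RPL36AL at chr14:49620612-49620641 on the minus strand, RPL26 at chr17:8383179-8383208 on the minus strand, RPL26L1 at chr5:172958714-172958743 on the plus strand, RPS27 at chr1:153990747-153990776 on the plus strand, RPS27L at chr15:63157463-63157492 on the minus strand and RPS4X at chrX:72277234-72277263 on the minus strand. The run was 19 bases in RPL39, 16 in RPL7A and 5 in RPL41. RPS4X, one of the highest core genes, began with a purine and had no run in this window. Of the 9 paralogs 7 were in the table and 1, RPL22L1, had a tract: the starts of RPL26L1 and RPS27L had no run where those of RPL26 and RPS27 had runs of 12 and 7 bases.

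The members were among the most abundant mRNAs of the cells. A mean of at least 1 TPM, the cutoff the study used for expressed genes, was reached by 81 of the 88 members, against 56.7% of all protein-coding genes. At least 100 TPM was reached by 71 members, against 7.86%. Their summed share of the TPM was 7.80%, 7.58% and 7.12% in the 3 replicates, a mean of 7.50% ± 0.35 (SD, n = 3). Of this the large subunit core held 4.31% ± 0.23 and the small subunit core 3.11% ± 0.12. The median core gene had 782 TPM, where the median protein-coding gene had 3.75 TPM, and 26 of the 100 highest protein-coding genes by TPM were core genes. The core genes lay on 21 chromosomes, so the set is not a cluster of neighbours. In reads, without division by length, the members took 4.51%, 4.47% and 4.78% of each replicate.

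**Figure D1:**
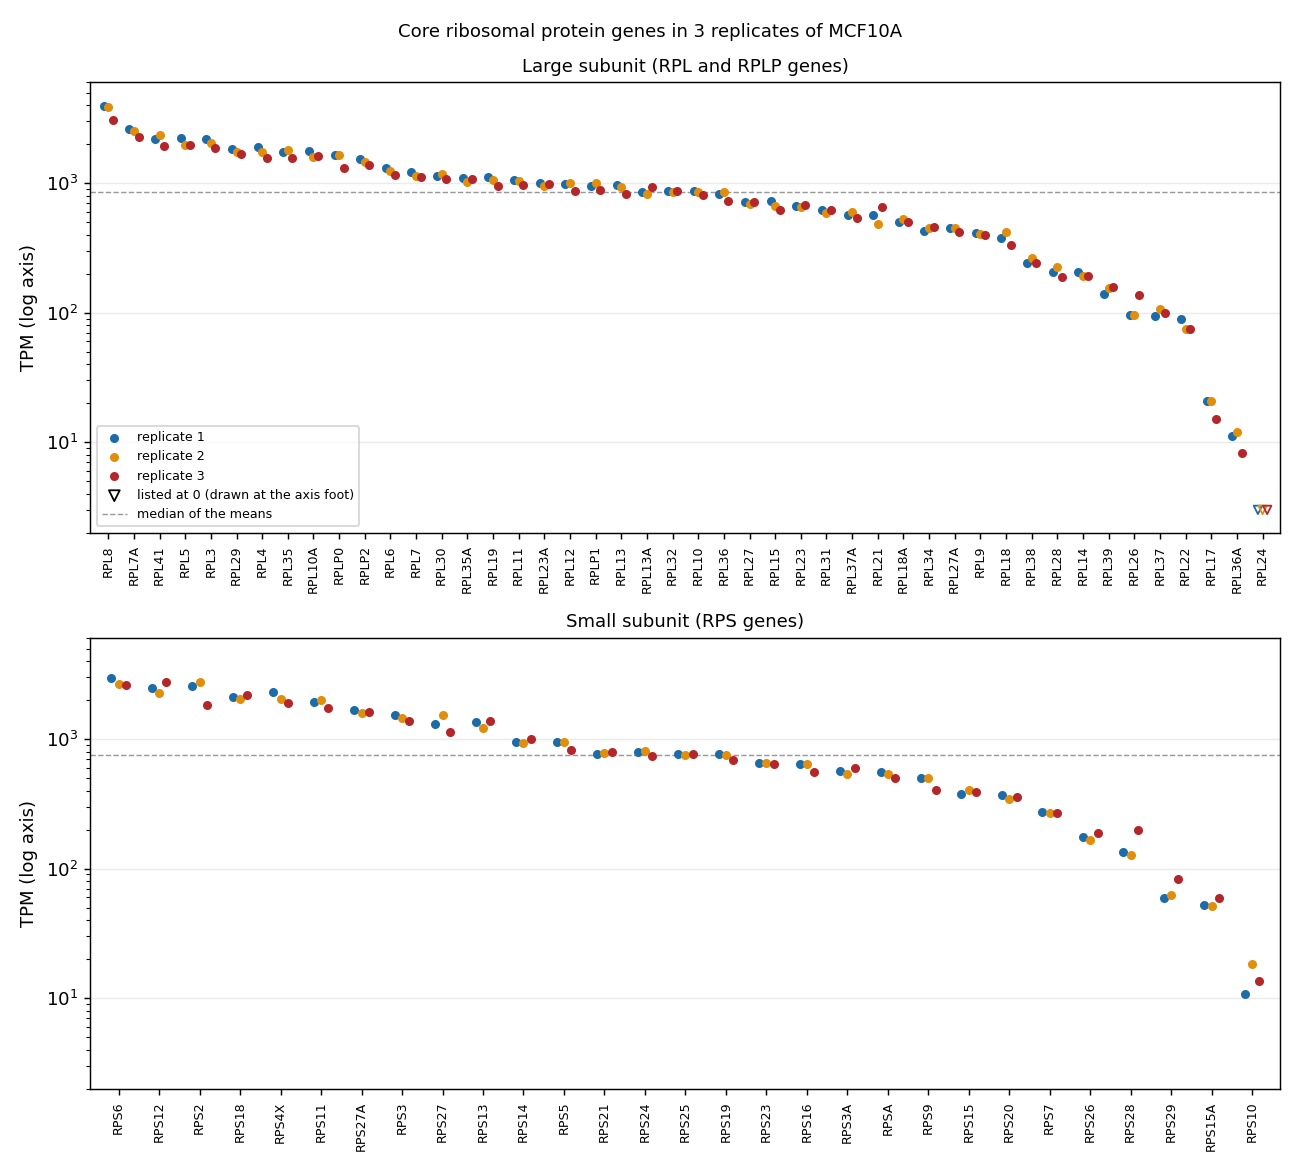
TPM of 75 of the 77 core genes in each of the 3 replicates on a log axis, with large subunit genes above and small subunit genes below, ordered by their mean, and dashed lines at the median of the means of all core genes of the subunit (856 and 759 TPM). Most genes lie above 100 TPM with the replicates close together, and a short tail that ends in RPL24, listed at 0, lies below.

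On the deposited scale the highest large subunit gene was RPL8, whose protein lies close to the peptidyl transferase centre. It was measured at 3922, 3888 and 3094 TPM, and replicate 3 was the lowest. The top place depends on the length: RPL8 had a mean of 2960 TPM with the canonical length, below the 3458 TPM of RPL19, and RPL41 led per coding length with 8236 TPM. RPL7A followed with 2620, 2531 and 2283 TPM. RPL41, which encodes the shortest ribosomal protein, had 2211, 2339 and 1927 TPM, and RPL3, a protein of the core of the subunit, had 2190, 2037 and 1879 TPM. RPL5 was at 2234, 1985 and 1963 TPM. Its protein carries 5S ribosomal RNA into the particle together with that of RPL11, which had a mean of 1021 ± 44.5 TPM (SD, n = 3). The genes of the stalk that recruits translation factors, RPLP0, RPLP1 and RPLP2, had means of 1531, 951 and 1456 TPM.

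In the small subunit RPS6, the protein that S6 kinases phosphorylate, was the highest gene by the deposited mean, with 2970, 2637 and 2612 TPM. RPS12 had 2487, 2262 and 2778 TPM, so here replicate 3 was the highest. RPS2 had 2549, 2747 and 1831 TPM and RPS18 2106, 2040.5 and 2192 TPM. The ranges of RPS6, RPS12 and RPS2 overlapped, and their order changed from replicate to replicate. RPS4X, on the X chromosome, had a mean of 2079 ± 196 TPM, and RPS27A, which is made as a fusion with ubiquitin, 1621 ± 44.6 TPM.

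Between these ends lay genes of varied roles. RPS19, the gene most often mutated in Diamond-Blackfan anaemia, had 762, 751 and 694 TPM, and RPS26, mutated in the same disease, had 174, 165 and 188 TPM. RPL35A, another gene of that disease, had 1090, 1021 and 1070 TPM, so its replicates differed by little. RPS3, which lies at the entry of the mRNA channel, had 1527, 1464 and 1382 TPM and was lowest in replicate 3. RPL10, which joins the large subunit late in assembly, had 876, 857 and 814 TPM. RPL13A, which also has a role in translational silencing by interferon, had 854, 831 and 926 TPM and was highest in replicate 3. RPL23, 670, 656 and 675 TPM, and RPL32, 874, 849 and 864 TPM, were among the steadiest genes, each with an SD of 0.021 on the log2(TPM + 1) scale. In all, 68 of the 77 core genes had a mean of at least 100 TPM, and the median was 856 TPM in the large and 759 TPM in the small subunit as deposited. That order turned with the canonical transcript length, described below, where the medians were 1044 TPM in the large and 1648 TPM in the small subunit, so which subunit stood higher cannot be said.

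Although the proteins are needed in matched amounts, the deposited levels of the core genes differed widely. From the 10th to the 90th percentile the means ran from 91.7 to 2093 TPM, a fold of 22.8. This spread lay between genes and not between replicates: across the 75 core genes with reads, Spearman's rho of TPM between pairs of replicates was 0.991 to 0.998, given as a description across genes. The low end of the range held few genes. By mean TPM the lowest in the large subunit were RPL24, RPL36A, RPL17, RPL22 and RPL37, and among those of the small subunit were RPS10, RPS15A, RPS29 and RPS28.

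Part of the low values went with exons that are annotated to more than 1 gene. At least 50% of the bases of the canonical transcript also belonged to another gene of the same strand in 4 members, among them RPL17, RPS10 and RPL26, against 6.60% of all protein-coding genes, so such sharing was not more frequent among the 88 members than in the background. RPL36A followed with 43.8%, and of the Y-linked members RPS4Y1 with 35.7%. For RPL17, RPS10 and RPL36A the partner is a read-through gene, an annotated transcript that joins the ribosomal gene to its neighbour. Every partner of these core genes had 0 reads in all replicates.

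RPL17, on chromosome 18, shared 96.9% of its canonical transcript with RPL17-C18orf32. It had 20.8, 20.6 and 15.2 TPM from 100, 102 and 62 reads. RPS10, on chromosome 6, shared 84.0% with RPS10-NUDT3. It had 10.7, 18.3 and 13.5 TPM from 79, 139 and 85 reads, and replicate 2 stood highest. RPL36A, on the X chromosome, had 11.2, 12 and 8.27 TPM and shared its bases with RPL36A-HNRNPH2. RPL26, on chromosome 17, shared 65.3% with the unnamed protein-coding gene ENSG00000263809 and had 96.3, 95.2 and 136 TPM. Less sharing was found in 2 further low genes: RPL22, with 11.2% shared, and RPS15A, with 9.90% shared and 52.6, 51.8 and 59.0 TPM. The part of the shared exons in these levels was not tested.

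The 5 core genes with at least 20% shared bases had means of at most 109 TPM, and of the 71 other core genes with reads 4 lay below 109 TPM.

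RPL24, whose protein forms a contact between the subunits, was listed at 0 in every replicate. A count of 0 allows up to 3 reads, which for RPL24 is 0.220, 0.214 and 0.259 TPM in replicates 1, 2 and 3. Such limits cover counting error only. On neither strand does its canonical transcript overlap exons of other genes. The gene on its left, ZBTB11, 3956 bases away on chromosome 3, had 31.4, 30.9 and 26.0 TPM, and the gene on its right, CEP97, had 15.1, 12.2 and 13.2 TPM. Of the 50-base windows of RPL24 54.0% had an exact copy elsewhere in the genome, but only 5.86% of its 100-base windows did. The 6 pseudogenes named for RPL24 had 29, 9 and 10 reads. RACK1, a scaffold protein that sits on the small subunit, was likewise at 0.231, 0.337 and 0.271 TPM, from 2 or 3 reads, with no shared bases on its strand. Since genes that every cell uses are listed at or near 0 here, a 0 in this table does not show that a transcript was lacking. The limits hold only if reads of the gene could be assigned to it, and copies on the patch sequences of GRCh38.p14, the build in the submitters' notes, were not searched for RPL24, RACK1 or other genes at 0. What sets these values was not tested. Of the 77 core genes 2 and of the 9 paralogs 2 had 0 reads in every replicate, against 26.2% of protein-coding genes.

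The length by which reads are divided also moved the levels. The deposited TPM rest on the longest transcript of each gene. For 36 of the 77 core genes this is a transcript annotated as retaining an intron and for 30 a protein-coding one. These transcript types were not counted over all protein-coding genes. The median ratio of the length used to that of the canonical transcript was 1.63 in core genes and 1 in all protein-coding genes. It was at least 2 in 29 of the 77 core genes, against 5.65% of protein-coding genes. With the canonical length for every gene the median core gene had 1312 TPM, the members held 11% of all TPM, and 42 core genes were among the 100 highest protein-coding genes.

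RPS29 changed most. Its length was taken as 7059 bases, and the canonical transcript has 292 on the same scale. It had 59.3, 62.3 and 82.9 TPM as deposited and 1160, 1218 and 1658 TPM with the canonical length, a change of 19.7-fold. RPS20 rose from a mean of 355 to 2642 TPM, RPS7 from 270 to 1648 TPM, RPS24 from 778 to 3965 TPM and RPL18 from 377 to 1857 TPM. RPS24 was then the highest of all core genes. RPL37 did not move in this way, since its canonical transcript is itself the longest, at 7569 bases for a coding sequence of 291. It had 93.4, 106 and 99.8 TPM as deposited. Its mean was 1108 TPM when reads were divided by coding length and scaled to protein-coding genes alone.

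**Figure D2:**
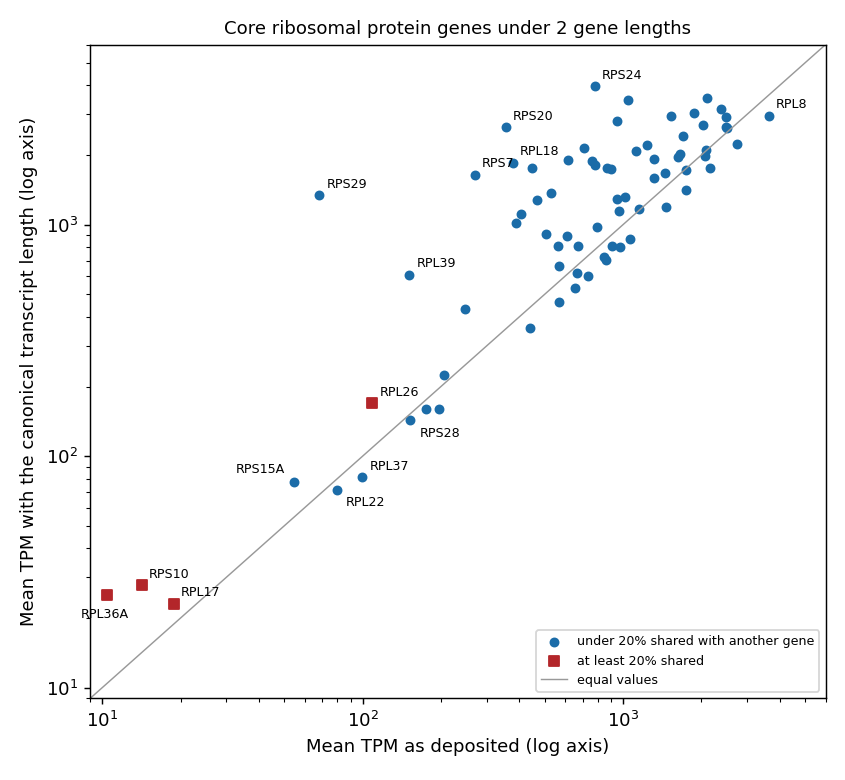
Mean TPM of the 75 core genes with reads as deposited, on the longest transcript, against TPM recomputed with the canonical transcript length, both on log axes. RPS29 lies far above the line of equal values (68.2 against 1346 TPM), while RPL36A, RPS10 and RPL17, marked as squares for shared exons, stay below 30 TPM on both scales.

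With coding length for every protein-coding gene the fold from the 10th to the 90th percentile of core genes fell to 8.27, and with reads that were not divided by length it was 14. With the canonical length it was 24.1. Leaving out the core genes with at least 20% shared bases gave a fold of 11.9 on the deposited scale. RPL17, RPS10 and RPL36A had means of 13.2, 17.1 and 31.2 TPM per coding length, so they were low on each of the 3 length scales.

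Sequence that is repeated elsewhere in the genome was examined next. The spliced canonical transcripts were cut into overlapping windows, and each was looked up on both strands of the main chromosomes outside the gene. In the median core gene 32.8% of the 50-base windows had an exact copy, and 48.5% within the coding sequence. The share depended on the window: it was 49.2% for 36 bases, 18.9% for 75 and 6.54% for 100. It reached 100% in RPL21, 98.2% in RPS3A, 95.0% in RPS27, 94.6% in RPS10 and 93.8% in RPL39, and it was 0% in RPL38 and 0.242% in RPLP2.

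Core genes with a large share of copied windows were found at high and at low levels. RPL21, all of whose 100-base windows are copied too, had 566, 483 and 650 TPM. RPS3A had 565, 533 and 593 TPM and RPS27 1310, 1525 and 1125 TPM. In contrast RPS10 and RPL39, with 94.6% and 93.8% of their windows copied, had means of 14.2 and 151 TPM. RPL17, with 88.0% copied, had a mean of 18.9 TPM. RPS10 and RPL17 also share exons with another gene. Across the 75 core genes with reads, Spearman's rho between the share of copied 50-base windows and the canonical-length TPM was 0.07, a description over genes of the same libraries. RPL24, at 0 with 54.0% of its windows copied, is not among them. The part of copied sequence in these levels was not tested.

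**Figure D3:**
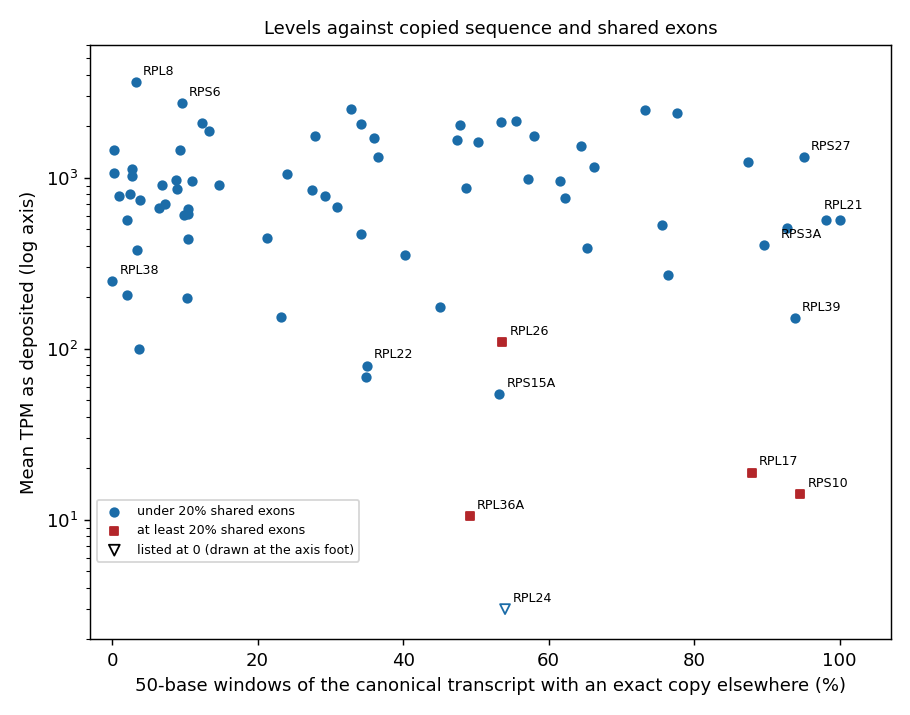
Mean deposited TPM of 75 of the 77 core genes (log axis) against the percentage of their 50-base windows with an exact copy elsewhere in the genome, with squares for genes that share at least 20% of the canonical transcript with another gene and an open triangle for RPL24, listed at 0. Genes above 500 TPM are found from almost 0% to 100% copied sequence, whereas the squares lie at or below 109 TPM.

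The pseudogenes themselves took few reads. The annotation named 1600 pseudogenes after 78 of the members, 495 of them had reads, and together they held 5389, 5998 and 4239 reads in replicates 1, 2 and 3, where the members held 688697, 689704 and 534247. RPL21 had the most, 133, followed by RPL23A with 91 and RPL7A with 80. By reads the pseudogenes of RPS2 led, with 974, 1118 and 620 reads. Those of RPS28 had 933, 926 and 853, close to the 1073, 1040 and 1348 reads of RPS28 itself. All 50-base windows of the RPS28 coding sequence were copied elsewhere, so how reads were divided between the gene and its copies depends on the counting and is uncertain. Small nucleolar RNA genes, which guide the modification of ribosomal RNA, lay within 28 core genes, 60 in all, with 5 in RPL4.

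The paralogs were far below the core genes as a group. Of 9, 6 reached 1 TPM and 3 reached 100 TPM, against 56.7% and 7.86% of all protein-coding genes. Their summed level was 0.077% ± 0.004 of all TPM (SD, n = 3). RPL36AL was the exception. It derives from RPL36A and encodes a nearly identical protein, and it had 444, 376 and 429 TPM against 11.2, 12 and 8.27 TPM for RPL36A. In every replicate RPL36AL exceeded RPL36A, by 5.20 ± 0.34 (SD, n = 3) on the log2(TPM + 1) scale and by 3.71 with the canonical length. The ratio is uncertain, since 43.8% of the RPL36A transcript is shared with a read-through gene and 49.2% of its 50-base windows have a copy elsewhere. Of the windows of RPL36AL 19.3% had a copy, 14 of 627 of them in RPL36A.

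RPL26L1, a paralog with 84.1% identical coding bases, had 117, 115 and 131 TPM, and RPL26 96.3, 95.2 and 136 TPM. The ranges overlapped. The mean log2 ratio of the paralog to RPL26 was 0.17 ± 0.19 and turned to -0.72 with the canonical length, so which of the pair is higher cannot be said. The level of RPL26 is itself uncertain, since 65.3% of its canonical transcript is shared and 53.7% of its 50-base windows have a copy elsewhere. RPL7L1, which takes part in ribosome assembly, had 201, 198 and 167 TPM, 16.3% ± 1.35 of RPL7. Only 56.3% of aligned coding positions are the same in that pair, and no 50-base window is shared. Elsewhere in the genome, however, 48.6% of the 50-base windows of RPL7L1 and 52.9% of those of RPL26L1 have an exact copy. This limits how surely their reads can be assigned.

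RPL39L is the testis-enriched paralog of RPL39, which lines the exit tunnel for the nascent chain. It had 15.5, 15.6 and 16.8 TPM, from 61, 63 and 56 reads. RPL39 had 139, 156 and 158 TPM, and the ranges did not overlap. In RNA of bulk cells a transcript in few cells and a low level in every cell cannot be told apart. RPL39L stood at 10.6% ± 0.59 (SD, n = 3) of RPL39 as deposited, with a log2 ratio of TPM + 1 of -3.16, or -5.41 with the canonical length. The coding sequences have 153 bases each and differ at 8, which are set in capitals below to show how close the pair is. RPL39 lies on chromosome X at 119786504 to 119791630 and RPL39L on chromosome 3 at 187120948 to 187180908 (hg38, GENCODE release 44, both on the minus strand).
RPL39: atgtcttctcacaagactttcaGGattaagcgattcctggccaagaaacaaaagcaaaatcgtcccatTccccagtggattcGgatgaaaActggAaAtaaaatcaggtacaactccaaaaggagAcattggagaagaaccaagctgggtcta
RPL39L: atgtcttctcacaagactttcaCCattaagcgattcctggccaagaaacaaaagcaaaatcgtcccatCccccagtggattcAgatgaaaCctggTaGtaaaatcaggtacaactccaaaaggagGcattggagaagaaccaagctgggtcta

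In spite of this likeness the transcripts can be told apart in most windows: 18 of the 680 50-base windows of RPL39L also occur in RPL39, and 2.65% of its windows have a copy anywhere else. In RPL39 itself 93.8% do, and its 19 pseudogenes had 61, 50 and 51 reads.

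RPS27L, a paralog of RPS27 that is known as a target of p53, had 23.7, 26.8 and 21.9 TPM, against 1310, 1525 and 1125 TPM for RPS27. It stood at 1.84% ± 0.10 of RPS27 as deposited. The length used for RPS27L was 6106 bases for a coding sequence of 252, and per coding length its mean was 249 TPM and that of RPS27 1385 TPM. The coding sequences, printed for contrast with the former pair, have the same length and differ at 56 bases, again in capitals. RPS27 lies on chromosome 1 at 153990762 to 153992155 on the plus strand and RPS27L on chromosome 15 at 63125872 to 63158021 on the minus strand. No 50-base window of RPS27L occurs in RPS27.
RPS27: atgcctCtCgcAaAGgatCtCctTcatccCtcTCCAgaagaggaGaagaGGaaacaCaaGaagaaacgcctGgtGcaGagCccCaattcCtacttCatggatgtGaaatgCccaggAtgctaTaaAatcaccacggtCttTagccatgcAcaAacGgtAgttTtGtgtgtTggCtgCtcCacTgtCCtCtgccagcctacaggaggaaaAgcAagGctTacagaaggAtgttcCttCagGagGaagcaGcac
RPS27L: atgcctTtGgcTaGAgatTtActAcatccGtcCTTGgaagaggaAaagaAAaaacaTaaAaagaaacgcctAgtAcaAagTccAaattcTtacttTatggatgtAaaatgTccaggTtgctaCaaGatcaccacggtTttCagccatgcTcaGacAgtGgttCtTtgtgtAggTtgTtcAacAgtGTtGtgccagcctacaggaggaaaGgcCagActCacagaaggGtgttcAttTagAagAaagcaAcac

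RPL3L, the paralog of RPL3 in heart and skeletal muscle, was covered by 1, 2 and 1 reads, which is 0.0889, 0.173 and 0.104 TPM, against a mean of 2036 TPM for RPL3. RPL10L, an intronless testis gene derived from RPL10, was listed at 0 in every replicate, where the limit of 3 reads is 0.738, 0.718 and 0.868 TPM. RPL22L1 was listed at 0 too, with limits of 0.300, 0.292 and 0.352 TPM, while its partner RPL22 had 89.0, 75.3 and 74.7 TPM. RPL22L1 has no bases in common with another gene on either strand, 1.08% of its 50-base windows have a copy elsewhere, and the gene on its right, EIF5A2, had 6.31, 5.84 and 4.80 TPM. The nearer gene on its left, the unnamed ENSG00000285218, 4495 bases away, had 0 reads in every replicate. As for RPL24, patch sequences were not searched, so the 0 of RPL22L1 cannot be read as a low level beside RPL22. RPSA2, a copy of RPSA on chromosome 19 with 99.5% identical coding bases, had 8.35, 8.54 and 5.86 TPM, 1.42% ± 0.22 of RPSA, and 728 of its 2091 50-base windows occur in RPSA, so reads of the pair cannot be fully separated.

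**Figure D4:**
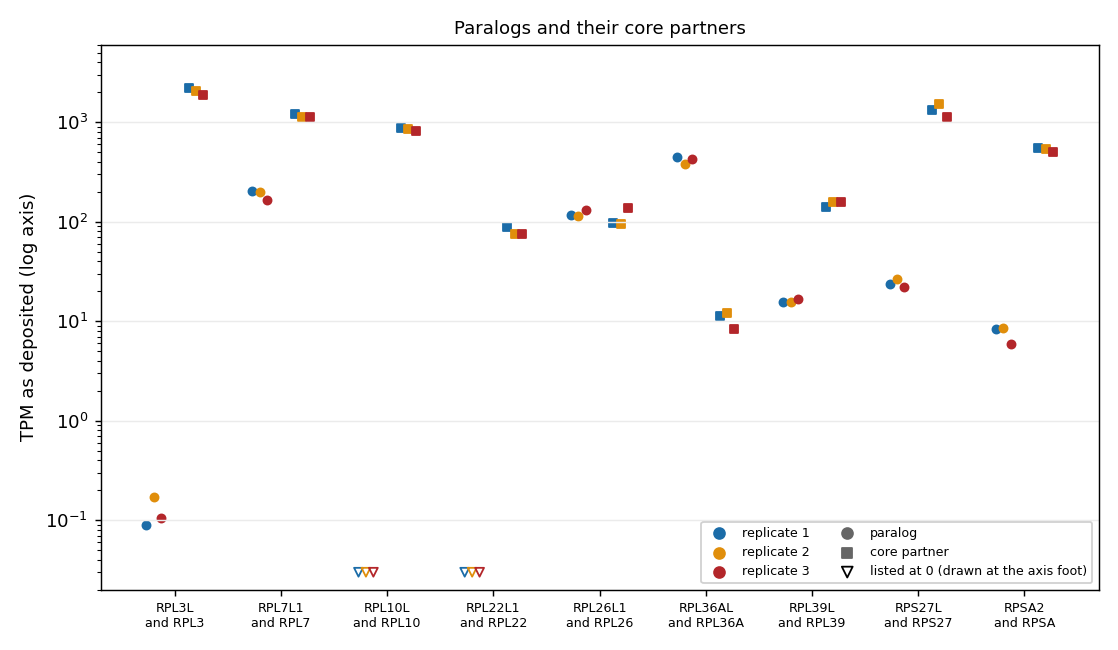
TPM of the 9 paralogs (circles) and their core partners (squares) in each of the 3 replicates, on a log axis, with open triangles for genes listed at 0. RPL36AL lies above RPL36A in each replicate, RPL26L1 and RPL26 overlap, and the other paralogs with reads lie below their partners.

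On the deposited scale the core genes varied little between replicates. The median SD of log2(TPM + 1) was 0.094 in the core genes and 0.16 in the 8364 protein-coding genes that averaged 10 TPM or more. In the 221 protein-coding genes of at least 500 TPM, core genes included, it was 0.13. For the core genes it was 0.053 without replicate 3, and 0.088 when each replicate was scaled to protein-coding genes alone. The SD of the other protein-coding genes was not computed on that scale, so the contrast holds for the deposited scale only. The smallest SD among core genes with reads were those of RPS23, with 652, 658 and 646 TPM, RPS25, with 760, 751 and 767 TPM, and RPS7, with 273, 269 and 268 TPM. The largest was 0.36 in RPS10, which rested on the fewest reads of the genes with a large SD. RPS28 followed with 0.35 and 134, 126 and 198 TPM, RPS2 with 0.31, RPL26 with 0.29 and RPL36A with 0.26. In RPS28 and RPL26 replicate 3 was high, and in RPS2 and RPL36A it was low.

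Among the 8364 protein-coding genes that averaged 10 TPM or more, replicate 3 was mostly lower than the others on the deposited scale, and less so among the core genes. Relative to the mean of replicates 1 and 2, the median log2 ratio in replicate 3 was -0.090 in core genes and -0.23 in the 8364 genes. In the 221 protein-coding genes of at least 500 TPM, closer in level to the core genes and with those above 500 TPM among them, it was -0.18. In 46 of the 75 core genes with reads replicate 3 was lower than both others, against 84.3% of those protein-coding genes, and in 17 it was higher than both, against 3.28%. The signal recognition particle RNA gene RN7SL1 took 49293 and 56610 TPM in replicates 1 and 2 and 150632 TPM in replicate 3, and TPM are shares of a fixed total. When each replicate was scaled to protein-coding genes alone, replicate 3 moved up by 0.19 on the log2 scale. The median ratio was then 0.088 in core genes and -0.052 in the 8364 genes, with 9 core genes lower against 48.4% of protein-coding genes and 48 core genes higher against 24.2%. So the direction for the core genes turns with the scaling, while on the deposited scale 66 of 75 core genes lay above the median of the protein-coding genes. The part that RN7SL1 had in this was not tested.

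By subunit, replicate 3 was lower than both others on the deposited scale in 31 of 45 large subunit and 15 of 30 small subunit core genes with reads. Both shares lay below the 84.3% of the 8364 protein-coding genes. The median log2 ratios over all 46 and 31 core genes were -0.11 and -0.01 on the deposited scale. The subunits were not split on the protein-coding total, where the direction for the core genes turned. RPS28, RPL26 and RPS29 had the largest positive ratios, 0.60, 0.50 and 0.44, and RPS2, RPL36A and RPL17 the largest negative ones, -0.53, -0.44 and -0.43.

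**Figure D5:**
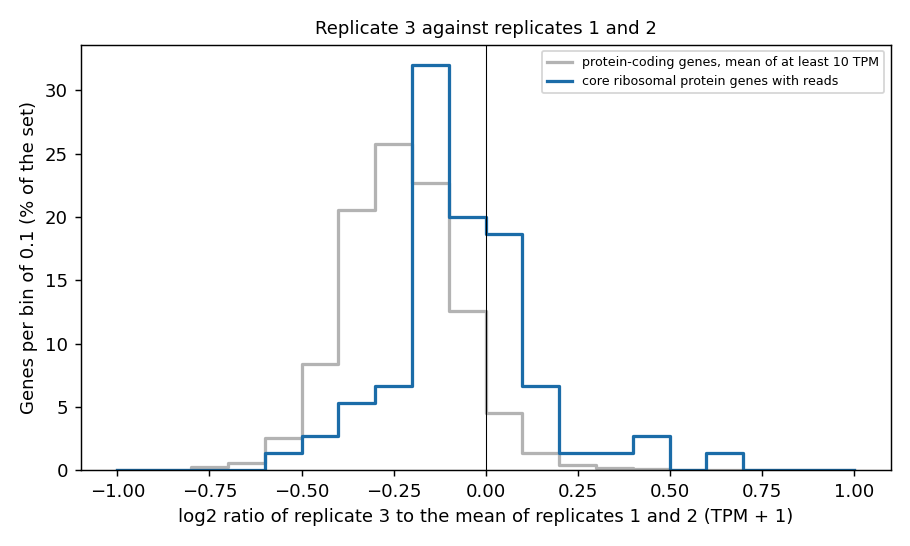
Percentage of genes per bin of 0.1 in the log2 ratio of replicate 3 to the mean of replicates 1 and 2 (TPM + 1), for the 75 core genes with reads and for 8364 protein-coding genes that averaged 10 TPM or more. The core genes peak closer to 0 (median over all 77, -0.090) than the protein-coding genes (median -0.23).

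To see whether the replicates differed beyond counting error, a chi-square test per gene set its reads against those that equal TPM would give. P-values were adjusted (Benjamini-Hochberg) over 12359 protein-coding genes with at least 15 reads. The test called 66 of the 75 core genes tested and 4 of the 6 paralogs tested, against 62.0% of protein-coding genes. It compares libraries and not conditions, and the many reads of the core genes make small differences visible. Without replicate 3 it called 43 core genes. The share of all protein-coding genes was not computed for that setting, so the fall cannot be called particular to the core genes.

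The genes around ribosomal protein synthesis gave the background to these levels. FAU, which encodes RPS30 fused to a ubiquitin-like domain and lies outside the naming rule, had 231, 245 and 252 TPM. Of 15 genes of the translation machinery 14 reached 1 TPM, with a median of 407 TPM. The elongation factor EEF1A1 had 3202, 2685 and 2926 TPM and EEF2 2693, 2663 and 2115 TPM, so they lay among the highest core genes. The exception was EEF1G with 0, 0.0742 and 0 TPM, 99.5% of whose canonical transcript also belongs to a second gene. EIF3L of the same list, with 58.5% shared, had 141, 132 and 128 TPM. All 6 genes of mTOR and LARP control were above 1 TPM, with LARP1 at 369, 383 and 277 TPM.

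All 10 chaperones that escort single ribosomal proteins had a mean of at least 1 TPM, with a median of 57.0 TPM, and so did all 20 genes of ribosome assembly and ribosomal RNA synthesis, with a median of 101 TPM. Nucleolin (NCL) led the latter with 1200, 1136 and 924 TPM, and NOP2, 96.2% of whose transcript is shared, was the lowest with 1.07, 1.53 and 1.18 TPM. The 78 genes of the mitochondrial ribosome, a separate particle with its own proteins, had a median of 67.3 TPM, and 76 of them reached 1 TPM. On the deposited scale the median SD in that set was 0.13 and the median log2 ratio of replicate 3 was -0.18. Both lay between the values of the core genes and of the 8364 protein-coding genes.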

How the data were processed

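Per the labels and the methods of the study, RNA depleted of ribosomal RNA was sequenced, and reads were mapped to hg38 and counted with Seq2science. The submitters' processing notes name fastp, STAR, MultiQC and the build GRCh38.p14, without versions. The annotation release, the use of strand and the treatment of reads with several matches are not given in the sources used here. The authors deposited 1 table of TPM per gene and replicate, unfiltered and not pooled, and 0 columns of values were left unused.

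The deposited TPM were used as they are. Genes were matched by identifier to GENCODE release 44 (62700 of 62754). TPM times gene length, divided by its smallest step, gave whole numbers (within 0.01) for 100% of the matched genes, read here as counts of reads. The length that did so was the longest transcript, 1 base less for each exon, and the transcript lengths by which reads were divided follow this convention. Coding lengths count every base, and values per coding length are scaled to protein-coding genes alone. The totals rest on the smallest step being 1 read. Since all samples are of 1 condition, no groups were compared and no count model was run.

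Levels were summarised by the mean and SD over 3 replicates and by the SD of log2(TPM + 1), with a pseudocount of 1. Bases of each canonical transcript that fall in exons of other genes, strand by strand, were counted as shared. Copies of windows were sought by exact match on the main chromosomes, and patches and alternate contigs were not searched. The chi-square test used reads and was tested on simulated data, as was the search for copies. The named genes were, by rule, all paralogs with their partners, the 5 highest and 5 lowest core genes of each subunit by mean TPM, core genes with 0 reads, members with at least 20% shared bases, the 5 largest and smallest SD, and the 5 core genes that moved most with canonical length or had most copied windows. The members, pairs and lists were chosen with earlier results of these data known, and the genes named beside the rule, such as RPL38, RPLP2, RPS4X and RPL11, after their values were seen. Alternatives covered the cutoff, the length, the scaling, the pseudocount, shared genes, window size and leaving out each replicate, and the coding length and the set without genes at 0 were added after seeing the data. Scripts ran in Python 3.11.15, with pandas 2.3.3, numpy 2.4.6, biopython 1.88, scipy 1.17.1 and, for plots, matplotlib 3.10.9. Some genes that the rule names are not reported here and are left out of the plots by gene name.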

Additional observations from a re-analysis of the deposited data

How the results depend on the processing

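The number of members at or above 1 TPM was 81, also with the median of replicates and with each replicate left out. With cutoffs of 0.5, 10 and 100 TPM the number of members reached was 81, 80 and 71. Their share of all TPM, 7.50%, became 11% with canonical lengths, 8.0% without mitochondrial genes and 8.63% of the protein-coding total. The median core level of 782 TPM became 1312 TPM with canonical length and 903 TPM with the protein-coding total. It was 1382 TPM with coding length, where both the length and the total, of protein-coding genes alone, were changed. The subunit medians, 856 TPM in the large and 759 TPM in the small, changed order to 1044 and 1648 TPM with canonical length. The fold between percentiles, 22.8, was 14 without division by length, 11.9 for genes under 20% shared, 10.7 for those not at 0, and 8.27 with coding length. The median spread of 0.094 was 0.088 on the protein-coding total and with canonical length, 0.073 relative to the core sum, and 0.053 to 0.095 with 1 replicate left out. The log2 ratio of replicate 3, -0.090, reversed to 0.088 on the protein-coding total. It was -0.11 to -0.079 against a single replicate, and -0.23 in the 8364 protein-coding genes of at least 10 TPM. The chi-square test called 43 to 55 core genes with 1 replicate left out, and 43 was the count without replicate 3. No share of all protein-coding genes was computed for these settings. Copied windows, 32.8%, became 49.2%, 18.9% and 6.54% with windows of 36, 75 and 100 bases and 48.5% in coding sequence. With canonical length the log2 ratios of paralogs to partners were -2.92 for RPL7L1, 3.71 for RPL36AL, -5.41 for RPL39L, -6.54 for RPS27L, -6.64 for RPSA2 and -0.72, reversed, for RPL26L1. Pyrimidine-tract starts, 67.7%, became 80.6% within 5 bases. No paired analysis was possible because the samples form 1 group. No depth can separate reads that lie wholly within shared exons or exact copies.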
